A study of Mus musculus with 2 samples.

Results

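The growth cone is the motile tip of a growing axon, and the 10 genes described here encode proteins that shape its membrane, actin and microtubules: Gap43, Basp1, Marcks, Marcksl1, Dpysl2, Dpysl3, Crmp1, Tmsb4x, Tmsb10 and Dbn1. They were chosen by name, for the known roles of their proteins, and not by their levels, though earlier results of these data were known. All 10 had a row among the 43346 mouse genes in each table, of which 21474 are protein-coding. The tissue was neural tube of healthy B6NCrl mouse embryos at 13.5 days, with male and female embryos pooled. No genotype change or treatment is given, so the samples form 1 group of 2 biological replicates. Each library was made from 10 ng of total RNA, with spike-in RNA added. The labels give the replicates separate biosamples but one shared donor identifier, and do not say whether they came from separate litters. Every spread between replicates below is therefore that of 2 samples and may be technical in part.

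A growth cone advances when actin polymerises at its leading edge and microtubules follow from the axon shaft. GAP43, BASP1 and the MARCKS proteins are acidic, lipid-anchored proteins on the inner face of the membrane, where they bind acidic lipids and, through regulation by protein kinase C or calmodulin, alter the actin beneath. The collapsin response mediator proteins (CRMPs) bind tubulin and pass on the semaphorin signal, beta-thymosins hold actin monomers in reserve, and drebrin binds along actin filaments and couples them to entering microtubules.

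All 10 genes were abundant. Their levels, in TPM (transcript abundance corrected for length and depth), ran from 160.3 for Marcks to 5388 for Tmsb4x. Ranked among all protein-coding genes by the mean of both replicates' ranks, Tmsb4x was at rank 4 and Marcks, the lowest, at rank 874, inside the top 4.07%. Together the 10 genes took 1.67% of all mouse gene TPM in replicate 1 and 1.58% in replicate 2. The order was the same in both libraries. Of the 9 pairs of neighbours in that order, 8 had replicate values that did not overlap. Dpysl3 and Dpysl2 were the exception: Dpysl3 was the higher in each library, but the ranges of the 2 genes overlap.

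**Figure D1:**
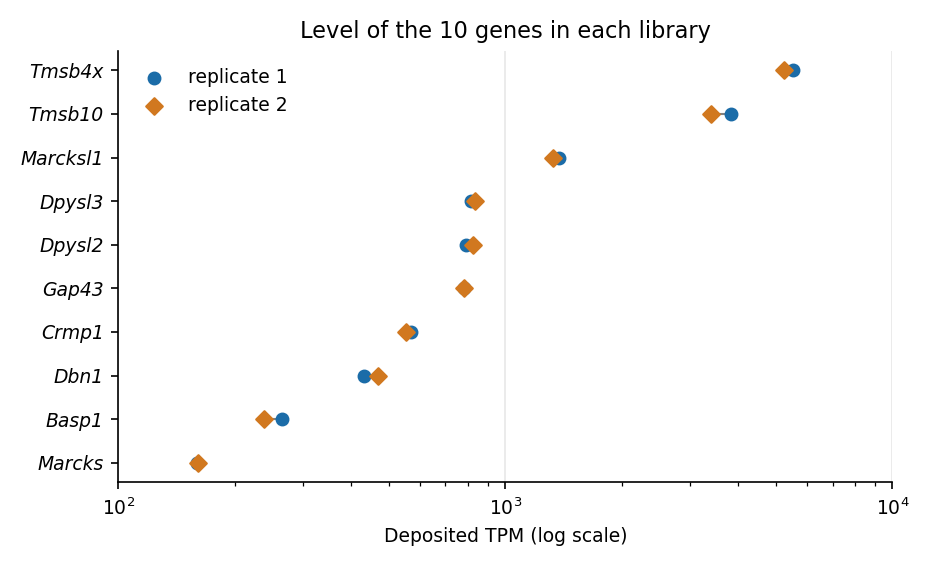
Level of each of the 10 genes in TPM on a log axis, with 1 point per replicate and a line joining the 2. Points of one gene lie close together beside the distance between most genes, from Tmsb4x at 5388 TPM to Marcks at 160.3 TPM.

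Among genes for the membrane-associated proteins, the 2 of the MARCKS family differed 8.44-fold in TPM. Marcksl1, which encodes the MARCKS-like protein MLP (also called MacMARCKS), stood at 1376 TPM in replicate 1 and 1329 TPM in replicate 2, a mean of 1353 ± 33.5 TPM (SD, n = 2). Marcks, the larger founding member, stood at 159.6 and 161.1 TPM, a mean of 160.3 ± 1.12 TPM (SD, n = 2). Marcksl1 was thus the higher of the pair in both libraries, by 8.63-fold and 8.25-fold, a mean ratio of 8.44 ± 0.268 (SD, n = 2), and made 89.4% ± 0.301 of the TPM of the 2 genes. The gap is smaller in reads, 46867 and 28680 for Marcksl1 against 14247 and 9119 for Marcks, because the Marcks transcript has 4048 bases and the Marcksl1 transcript 1605. Both genes have 2 exons and a single transcript in these tables. Their coding sequences, 927 and 600 bases long, were identical at 64.7% of 600 aligned bases, with 327 columns of gaps. Marcksl1 lies on chromosome 4 (129513581 to 129515985, plus strand) and Marcks on chromosome 10 (37133375 to 37138920, minus strand) of GRCm38.

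Gap43 encodes the growth-associated protein GAP-43, a protein kinase C substrate that binds calmodulin. It was measured at 780.72 TPM in replicate 1 and 779.68 TPM in replicate 2, a mean of 780.2 ± 0.735 TPM (SD, n = 2), from 23283 and 14711 reads. No other of the 10 genes differed so little between the libraries in TPM. That depends on the scale: in the comparison of counts further below, the log2 difference of Gap43 was -0.06. Dpysl2 differed least there, at -0.01. Basp1 encodes a brain acid-soluble protein with the same lipid-anchored, acidic design. It was lower, at 264 and 238 TPM, a mean of 251 ± 18.9 TPM (SD, n = 2), so the ratio of Gap43 to Basp1 was 3.12 ± 0.232. Neurogranin (Nrgn), which shares the calmodulin-binding motif of GAP-43 but belongs to dendrites of mature neurons, stood at 7.50 and 8.63 TPM. Gap43 was 97.2 ± 9.72 times as high. Gap43 occupies chromosome 16 (42248442 to 42340651) and Basp1 chromosome 15 (25363277 to 25413764), both on the minus strand. A single transcript, Gap43-201, carried 99.67% and 99.32% of the Gap43 level.

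Among the CRMPs, 3 of the 5 genes held most of the expression. Dpysl3 (CRMP4) was at 817 and 833 TPM, a mean of 825 ± 11.3 TPM (SD, n = 2). Dpysl2 (CRMP2, which binds tubulin dimers and promotes microtubule assembly) was at 793 and 822 TPM, a mean of 808 ± 21.1 TPM (SD, n = 2). These values overlap, and their ratio was 1.03 and 1.01 in the 2 libraries. Crmp1 was lower in both, at 570.06 and 553 TPM, a mean of 562 ± 11.9 TPM (SD, n = 2). The ratio of Dpysl2 to Crmp1 was 1.44 ± 0.068 and that of Dpysl3 to Crmp1 was 1.47 ± 0.0514.

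As shares of the family's TPM, Dpysl3 held 32.2% ± 0.187, Dpysl2 31.5% ± 0.573 and Crmp1 21.9% ± 0.638 (SD, n = 2). The 2 family members outside the 10 genes held less: Dpysl4 (CRMP3) 9.13% ± 0.0221 at 234 ± 2.42 TPM, and Dpysl5 (CRMP5) 5.30% ± 0.144 at 136 ± 2.62 TPM. Read counts give another picture, since the Dpysl2 transcript is 4520 bases long: Dpysl2 had 79240 and 52108 reads, close to the 83772 and 49824 of Tmsb4x, whose level per length is far higher. The coding sequences of the 3 main CRMP transcripts compared, Dpysl2-201, Dpysl3-201 and Crmp1-201, shared 71.2% to 74.3% of aligned bases pairwise. Dpysl2 lies on chromosome 14 (66802864 to 66868688, minus strand).

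**Figure D2:**
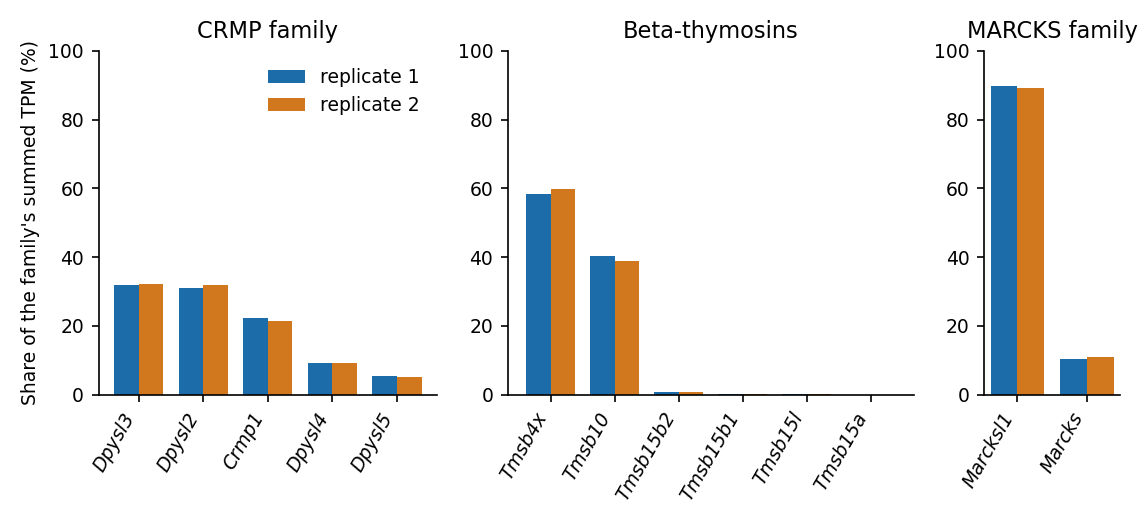
Share of each gene family's TPM held by each member in replicate 1 and replicate 2, for the CRMPs, the beta-thymosins and the MARCKS proteins. Dpysl3 and Dpysl2 hold nearly equal mean shares of the CRMPs (32.2% and 31.5%), and Marcksl1 holds a mean of 89.4% of its pair.

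CRMP genes have alternative first exons, which give the protein a long or a short amino-terminal end. Dpysl3 has 3 coding transcripts above 5% of its level, each with its own first exon. Dpysl3-201 held 65.16% in replicate 1 and 70.73% in replicate 2, and Dpysl3-202 held 22.12% and 16.56%. Dpysl3-204, the long form with 2049 coding bases against 1710 for Dpysl3-201, held 12.61% and 12.71%. The first 2 moved in opposite directions by more than 5 points while the long form stayed within 0.1 points. The posterior SD of the read assignment in replicate 1 was 446 reads for Dpysl3-201, on 24153 reads, and 458 for Dpysl3-202, on 7707. In replicate 2 it was 362 on 16941 and 368 on 3730, which is larger beside the reads of each transcript. Dpysl3-204 also has the longest last exon in the annotation, 3437 bases against 133 and 194, so its share rests on reads of that exon as well as on the first. For Dpysl2 the tables list only 1 transcript, Dpysl2-201, and a long form was not measured.

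Crmp1 was split almost evenly between its forms. The short form, Crmp1-201, held 55.22% and 55.16% of the Crmp1 level, and the long form, Crmp1-202, held 44.78% and 44.84%. The replicates thus differed by 0.06 points. The posterior SD of the assignment was 267 reads on 20001 in replicate 1. The forms share 12 inner exons and differ slightly in the end of the last and wholly in the first, at chromosome 5, 37245764 to 37246096 for the short form and 37242080 to 37242525 for the long. Those first exons hold 39 and 381 coding bases. Crmp1 is on the plus strand (37241940 to 37292133) and overlaps Evc, a gene on the opposite strand with 163 and 168 reads. Whether counting used strand is not given in the sources used here. The reads of Evc are few beside the 37031 and 22776 of Crmp1.

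Because both first exons were in use, the sequences before them are shown. Each is a RefSeq promoter of 300 bases in GRCm38.p6, plus strand, from 250 bases before the start to 50 after it, at chr5:37241808-37242107 for the long form and chr5:37245514-37245813 for the short form. Capitals mark the GC box, GGGCGG, on either strand, where matches may overlap.
Crmp1-202: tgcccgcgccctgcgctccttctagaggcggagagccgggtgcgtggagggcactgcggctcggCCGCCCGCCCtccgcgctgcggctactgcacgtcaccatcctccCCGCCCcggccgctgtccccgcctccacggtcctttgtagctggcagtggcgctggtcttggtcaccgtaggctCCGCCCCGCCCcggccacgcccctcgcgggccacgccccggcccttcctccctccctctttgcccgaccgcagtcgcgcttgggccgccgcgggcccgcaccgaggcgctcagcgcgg
Crmp1-201: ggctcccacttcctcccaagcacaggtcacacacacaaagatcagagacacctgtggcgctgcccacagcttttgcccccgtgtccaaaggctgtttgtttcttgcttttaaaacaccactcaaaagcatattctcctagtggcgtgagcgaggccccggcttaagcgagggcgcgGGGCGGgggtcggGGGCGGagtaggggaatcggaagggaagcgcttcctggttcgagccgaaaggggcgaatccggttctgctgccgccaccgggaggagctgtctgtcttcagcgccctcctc
The window of the long form has 5 GC boxes and that of the short form 2, while 35.7% of 32851 promoters of that length hold at least 1. CG pairs numbered 41 and 20, against a median of 7 over all promoters. GC content was 77% and 61%, against a median of 52.7%. Neither window holds the TATA box TATAAA on either strand, found in 13.6% of promoters. The same is true of the CCAAT box, found in 37.4%, and of the E-box CAGCTG, found in 16.3%. These counts describe letters in the windows and say nothing of what binds there.

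The beta-thymosins were the highest of the 10 genes. Tmsb4x, which encodes thymosin beta 4, was at 5542 TPM in replicate 1 and 5234 TPM in replicate 2, a mean of 5388 ± 218 TPM (SD, n = 2). Tmsb10, which encodes thymosin beta 10, was at 3818 and 3396 TPM, a mean of 3607 ± 298 TPM (SD, n = 2), at rank 9.5. Tmsb4x exceeded Tmsb10 by 1.45-fold and 1.54-fold, and the SD of that ratio was 0.0633. They held 59.0% ± 0.990 and 39.5% ± 1.01 of the family's TPM. The Tmsb15 genes shared the rest. Tmsb15b2 was at 74.8 ± 3.76 TPM, Tmsb15b1 at 30.1 ± 3.52 TPM and Tmsb15l at 29.1 ± 1.25 TPM. Tmsb15a had 1 read in replicate 1 and 0 in replicate 2, which allows up to 3 (counting error only). Reads of the near-identical Tmsb15 copies may be divided between them with error. Tmsb4x plus Tmsb10 reached 1.23 and 1.13 times the TPM of Actb plus Actg1, which encode the cytoplasmic actins whose monomers thymosins bind, a mean of 1.18 ± 0.0669. That is a ratio of transcripts and not of proteins.

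The 2 mRNAs encode peptides of equal length that differ at many bases. Their coding sequences, read from GRCm38 without the stop codon, are shown because reads of one could in principle be assigned to the other. Tmsb4x-201 spans chrX:167207504-167208036 and Tmsb10-203 chr6:72957621-72958012 in their coding parts, introns included, and both are on the minus strand. Capitals mark the bases at which they differ.
Tmsb4x-201: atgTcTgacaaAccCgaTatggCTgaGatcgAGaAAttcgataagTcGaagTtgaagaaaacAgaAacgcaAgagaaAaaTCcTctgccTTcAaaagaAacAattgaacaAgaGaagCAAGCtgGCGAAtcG
Tmsb10-203: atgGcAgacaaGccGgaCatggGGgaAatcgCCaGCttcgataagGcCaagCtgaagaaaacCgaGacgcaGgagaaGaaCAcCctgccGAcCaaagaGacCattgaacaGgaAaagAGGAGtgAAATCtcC
Over the 132 bases, 92 are identical and 40 differ, an identity of 69.7%. The read assignment between genes was nearly certain in these tables. The posterior SD of the gene count was 0 reads for 9 of the 10 genes, and 12.2 and 9.62 reads for Tmsb10, on 40592 and 22848 reads.

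The dominant thymosin transcripts were Tmsb4x-201, with 98.91% and 92.89% of its gene, and Tmsb10-203, with 97.63% and 97.24%. A second Tmsb4x transcript, Tmsb4x-203, was assigned 0.98% in replicate 1 and 6.99% in replicate 2. It was named after its values were seen. Its reads were 736 and 3140, with a posterior SD of 188 and 522. It begins at another first exon, at chromosome X, 167209008 to 167209149 against 167209106 to 167209315, and has 150 coding bases against 132. The 2 first exons overlap, and the other exons are nearly the same.

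Dbn1 encodes drebrin, whose embryonic form (drebrin E) gives way to an adult neuronal form (drebrin A) that carries an extra internal segment. Dbn1 was at 431 TPM in replicate 1 and 468 TPM in replicate 2, a mean of 449 ± 25.9 TPM (SD, n = 2), on chromosome 13 (55473429 to 55488111, minus strand). Its relative Dbnl, which encodes the drebrin-like adaptor mAbp1, was at 107 and 128 TPM. Dbn1 was 3.84 ± 0.258 times as high and made 79.3% ± 1.10 of the pair.

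Transcripts without exon 11, the extra segment, made up nearly all of Dbn1. Dbn1-203 held 64.95% and 64.80% of the gene and Dbn1-202 held 28.49% and 28.42%. These transcripts differ from each other at their ends and by 3 bases of exon 13. Dbn1-201 differs from Dbn1-203 only in carrying exon 11 and held 0.32% and 0.53%. It was named after its values were seen. Its estimated reads were 91.6 and 105, with posterior SDs of 40.9 and 44.6, so the uncertainty of the assignment is large beside its level. Of Dbn1-201 and Dbn1-203 together, the form with exon 11 made 0.484% and 0.805%. Transcripts annotated as retained introns held 6.17% and 6.26% of the gene.

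The bases that separate the 2 forms are 138 coding bases at chr13:55476636-55476773 on the minus strand of GRCm38. They are shown in capitals between 20 bases of each neighbouring exon, above the same junction without them.
Dbn1-201: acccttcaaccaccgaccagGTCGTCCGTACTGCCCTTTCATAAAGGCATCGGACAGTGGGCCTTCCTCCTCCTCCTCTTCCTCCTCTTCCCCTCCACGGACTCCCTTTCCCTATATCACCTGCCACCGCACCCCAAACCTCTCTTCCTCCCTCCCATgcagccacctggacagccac
Dbn1-203: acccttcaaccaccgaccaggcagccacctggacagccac

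**Figure D3:**
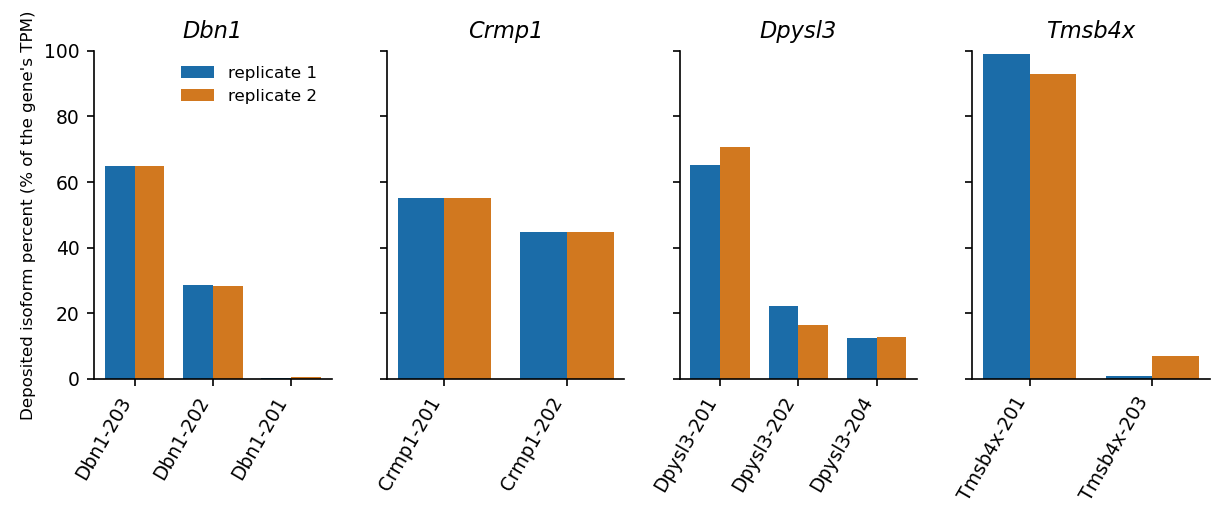
Share of each gene's level given to its transcripts in each replicate, in percent, for the 3 full-length coding transcripts of Dbn1, both of Crmp1, 3 of Dpysl3 and the first 2 of Tmsb4x. Transcript names end in the number the annotation gives them. Crmp1 is divided near evenly in both replicates, while Dpysl3-201 moves from 65.16% to 70.73%.

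Isoform shares of the 10 genes differed between libraries about as often as those of other genes. Of 14 member transcripts at 10 TPM or more in genes with several transcripts, 4 differed by 5 points or more: Dpysl3-201, Dpysl3-202, Tmsb4x-201 and Tmsb4x-203. Over all such transcripts in the tables, 29.1% did (2501 of 8584), so the count in the 10 genes is near the background. The median difference was 0.25 points in the 10 genes and 2.7 points overall.

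Replicates were next compared for each gene, to show how far the levels hold from one library to the other. Tmsb10, Basp1 and Tmsb4x were lower in replicate 2, by 0.23, 0.21 and 0.15 on the log2 scale, and Dbn1 was higher by 0.06. The test was a two-sided exact binomial test of rounded counts. Libraries were put on one scale with edgeR's TMM factors (trimmed mean of M values), and p-values were adjusted by Benjamini-Hochberg over 17428 genes. It compares these 2 libraries against counting noise, not conditions. In tissue samples a smaller number of cells of a type and less RNA per cell cannot be told apart.

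No gene of the 10 differed by at least 2-fold with an adjusted p under 0.05, the rule by which 2.25% of tested genes were called (392 of 17428). By adjusted p alone, 1 of the 10 was higher in replicate 2, against 12.8% of all tested genes, and 6 were lower, against 11.8%. At an unadjusted p under 0.05, 9 of the 10 passed, against 6028 of all 17428 tested genes. High counts make small differences pass: of the 979 genes averaging at least 5000 reads, 59.3% passed by adjusted p, and all 10 genes lie in that range. Each SE given here is from counting alone. The log2 difference was -0.23 (SE 0.0119) for Tmsb10 (exact binomial, adjusted p = 2.29e-81). It was -0.21 (SE 0.0234) for Basp1 (exact binomial, adjusted p = 4.91e-18). It was -0.15 (SE 0.00816) for Tmsb4x (exact binomial, adjusted p = 3.74e-74).

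The other differences were within 0.11 on the log2 scale. Marcksl1 was lower by 0.11 and Crmp1 by 0.10, with exact binomial adjusted p of 3.02e-22 and 2.06e-15. Gap43 was lower by 0.06 (exact binomial, adjusted p = 0.00031) and Dbn1 higher by 0.06 (exact binomial, adjusted p = 0.000542). Marcks, Dpysl3 and Dpysl2, at -0.05, -0.02 and -0.01, did not pass (exact binomial, adjusted p = 0.0731, 0.0885 and 0.651). The median absolute difference of the 10 genes was 0.08, and it was 0.14 over all tested genes and 0.07 among those averaging at least 5000 reads.

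These directions depend on the scaling. In TPM, Marcks, Dpysl2 and Dpysl3 were higher in replicate 2, whereas their log2 differences with TMM were negative. Scaled on spike-in counts instead of TMM, 3 of the 10 genes passed as higher in replicate 2 and 3 as lower. Of all 17428 tested genes, 5623 then passed in either direction. Gap43, Marcks, Dpysl2 and Dpysl3 then turned positive, but Gap43 and Marcks did not pass (exact binomial, adjusted p = 0.262 and 0.0876). Gap43, Marcksl1 and Crmp1, which passed with TMM, thus no longer did. Tmsb10, Basp1 and Tmsb4x stayed lower and Dbn1 higher under every scaling run. Over all genes past adjusted p, 52.0% were higher in replicate 2 with TMM and 83.4% with spike-in scaling, which shifts the median of all genes by 0.0866 on the log2 scale. The replicate spread estimated by edgeR over all tested genes was a coefficient of variation of 9.23%. The 10 genes had values from 5.57% to 6.63%, on 1 degree of freedom. These values are drawn by edgeR toward its trend over expression level, 5.81% to 5.98% for the 10 genes. They are therefore not the spread of each gene measured alone.

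**Figure D4:**
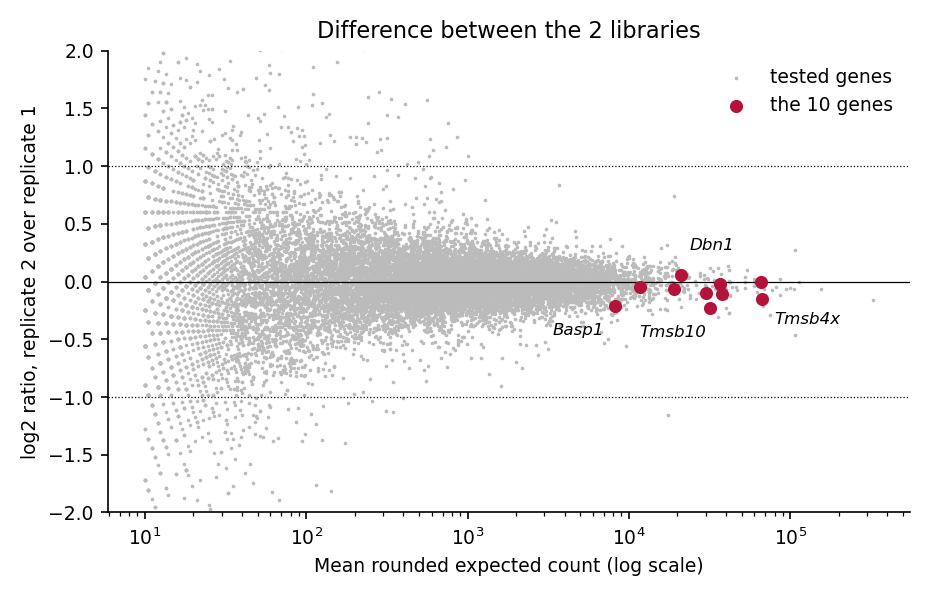
Log2 ratio of replicate 2 over replicate 1 against mean rounded expected count (log axis) for each tested gene in grey and the 10 genes in red, with dotted lines at 2-fold. The 10 genes lie at high counts between -0.23 and 0.06, and 95 genes beyond 2 in either direction are outside the plotted range.

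Transcripts for most of the proteins these 10 work with were also detected. Of 72 genes in 4 lists of relatives and partners, 71 were at 1 TPM or more in both libraries, and none of the 71 tested between libraries was called at 2-fold. Among 25 genes of actin machinery, the median level was 127 TPM. Actb, at 4622 ± 7.40 TPM, Actg1, at 3002 ± 1.81 TPM, and Cfl1 (cofilin, which severs actin filaments), at 2160 ± 68.9 TPM, were highest, and Enah, which encodes the filament-elongating protein Mena, was lowest at 26.5 ± 0.205 TPM. By adjusted p, 7 of the 25 were higher and 5 lower in replicate 2, with a median log2 difference of 0.03.

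Among 18 other growth cone proteins the median was 151 TPM. Stmn1 (stathmin, which binds tubulin) was highest at 4615 ± 22.7 TPM, followed by Rtn1 at 1537 ± 62.9 TPM and Pdia3 at 348 ± 13.7 TPM. Gprin1, which encodes a G-protein-regulated inducer of neurite outgrowth, was lowest at 11.2 ± 2.71 TPM. In replicate 2, 3 of the 18 were higher and 7 lower by adjusted p. Among 21 binding partners and kinases the median was 69.2 TPM. Among those named here are Calm2, which encodes calmodulin, at 2081 ± 60.9 TPM, and the kinesin light chain gene Klc1 at 453 ± 1.10 TPM. Prkca, a protein kinase C gene, was lowest at 5.44 ± 0.262 TPM. In this list 6 were higher and 7 lower. Of the 7 relatives tested, 1 was higher (Dbnl) and 1 lower (Dpysl5). For comparison, 12.8% of all tested genes were higher and 11.8% lower by adjusted p, and their median log2 difference was 0.00013.

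Libraries held 34125110 and 22311849 expected counts, of which the 10 genes took 404885 and 252038. Spike-ins took 13.03% and 12.6% of the TPM. Marker lists were read beside the tissue label. At 1 TPM or more in both libraries were 10 of 10 neuronal and 10 of 10 neural progenitor markers. Their summed levels were 4649 and 4527 TPM for neurons and 3153 and 3074 TPM for progenitors. The share of all genes that reach 1 TPM is not given here, so detection alone does not tell tissues apart. Other cells were also represented: 10 of 10 mesenchymal, 8 of 8 endothelial, 9 of 10 microglial and 9 of 10 erythroid markers were detected, and erythroid markers summed to 11470 and 11638 TPM. Some marker lists were higher in replicate 2. All 8 markers of dividing cells were higher there by adjusted p, against 12.8% of all tested genes, and none by 2-fold (sums 315 and 400.4 TPM). For skeletal muscle, 8 of 10 markers were called at 2-fold or more, against 2.25% of all tested genes (list sums 128 and 223 TPM). The highest gene of that list, Actc1, was not called, at 75.3 and 81.2 TPM. The highest called were Acta1 at 19.5 and 45.7 TPM, Tnnt1 at 9.55 and 32.6 TPM and Tnni1 at 11.2 and 24.1 TPM. The other called muscle genes were Myog, Myh3, Des, Myod1 and Myh8. For surface ectoderm, 6 of 8 were called at 2-fold or more (list sums 13.0 and 29.1 TPM). These were Krt14, at 1.18 and 5.49 TPM, Epcam, Krt8, Krt5, Krt18 and Trp63. No marker in any list was at 0 in both libraries. The part of these cells in the differences of the 10 genes was not tested.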

How the data were processed

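Total RNA-seq of 2 biological replicates of neural tube was analysed. Per the file headers and the README deposited with each sample, the build is mm10 and the annotation GENCODE M4. Which aligner and quantifier were used, and whether counting used strand, is not given in the sources used here. The deposited expected counts are estimated reads per gene or transcript. The deposited TPM and FPKM are scaled for length and depth, FPKM serving an alternative only, and the deposited isoform percent is a transcript's share of its gene. The deposited posterior columns give the mean and SD of the count, and other deposited columns were not used.

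Names, coordinates and structures came from GENCODE M21 (GRCm38), matched on identifiers without version. Of 29 member transcripts in both, 25 had the same length and the largest difference was 8 bases. Promoters came from RefSeq (GRCm38.p6), with an entry for 6 of the 10 genes. Counts were rounded, and genes averaging at least 10 reads were tested after TMM scaling by an exact binomial test with SciPy 1.17.1, adjusted by Benjamini-Hochberg. Replicate spread came from edgeR 4.0.16 in R 4.3.3, and DESeq2 1.42.0 gave alternative size factors. The test was checked on simulated counts with counting noise only, so the check does not cover the further spread between these libraries. Levels are mean ± SD (n = 2). The SE of a log2 difference, the binomial test and the upper bound for Tmsb15a cover counting error only. A gene at 1 TPM or above in each library counted as detected.

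The genes and lists were chosen with earlier results of these data known. After member values were seen, the families, gene pairs, actin ratio, subsets by count, isoform threshold of 5 points, promoter motifs and printed sequences were chosen, and Dbn1-201 and Tmsb4x-203 named. The other named genes were all relatives, the 3 highest and the lowest of each partner list, each listed gene called at 2-fold, and member transcripts at 5% or more. One gene that this rule names is not reported here. Of marker lists, the genes called at 2-fold and Actc1 are printed and the rest are summarised.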

Additional observations from a re-analysis of the deposited data

How the results depend on the processing

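No paired analysis was possible because the 2 libraries form a single group. With length correction removed, the share of Dpysl2 in its family was 42.1% against 31.5%, the log2 ratio of Marcksl1 to Marcks was 1.69 against 3.08, that of Dpysl3 to Dpysl2 turned to -0.84 and that of Dpysl5 to Dpysl4 turned to 0.049. TPM rescaled over mouse genes raised the summed mean level of the 10 genes from 14183 to 16271. In posterior mean TPM or in FPKM the order was the same and all 9 neighbour pairs had separate ranges, Dpysl3 and Dpysl2 included. Ranked only among detected protein-coding genes, Marcks fell in the top 6.59%. With spike-in scaling, the log2 difference became 0.023 for Gap43, 0.042 for Marcks, 0.081 for Dpysl2 and 0.062 for Dpysl3, and with totals over mouse genes it became 0.0040 for Dpysl2. Genes called at 2-fold numbered 392 with DESeq2 size factors, 394 with totals, 434 with spike-ins, 504 with no filter and 375 with posterior mean counts, against 392, and none of the 10 genes was called under any of them. With no filter, 8 of the 10 passed by adjusted p, against 4039 of all 24627 genes tested that way. The spread was 9.24% with DESeq2 size factors and 9.31% with no filter. With 2 replicates, a level, share or ratio from either alone lies within 1 SD of the mean by construction. Depth limits the rarest genes named, such as Tmsb15a, with 1 read and 0, and Trp63, with 9 and 33.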
